A study of Mus musculus with 9 samples.

Results

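The matrix metalloproteinases (Mmp), the ADAMTS proteases (Adamts), the ADAMTS-like proteins (Adamtsl) and the tissue inhibitors of metalloproteinases (Timp) were described in mouse lung. Members were taken by name, as genes whose symbol starts with Mmp and a digit, Adamts, or Timp and a digit, and whose deposited count was above 0 in at least 3 of the 9 libraries. Such a symbol was carried by 51 of the 22564 genes measured, and 44 met the rule. They comprised 17 Mmp, 18 Adamts, 5 Adamtsl and 4 Timp genes. Of the 7 genes left out, Mmp1a, Mmp1b, Mmp20 and Mmp21 had no fragment in any library, and Mmp7, Mmp10 and Adamts16 had 1 fragment in 1 library. The member nearest to the limit was Adamts18, with values above 0 in 4 libraries that each amounted to less than 1 fragment.

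All 9 libraries came from lungs of GFP-LC3 mice, a strain in which the autophagy protein LC3 carries a green fluorescent tag, so sham and irradiated animals shared this transgene. The 3 sham libraries received no radiation. The 3 single-exposure libraries followed 1 whole-brain dose of 10 Gy of X-rays at 2 Gy per min, and the 3 weekly-exposure libraries followed 3 such doses given once a week for 3 weeks. The lung lay outside the irradiated field, and the series asks about such bystander effects. The labels give no age, no sex and no interval between the last dose and tissue collection. Nothing states that the libraries of a group came from separate animals, so p-values measure the spread between these samples, which may be technical.

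Matrix metalloproteinases are zinc-dependent enzymes, secreted or anchored in the cell membrane, that cleave collagens, elastin, other matrix proteins and many signalling proteins. They are made as inactive precursors and are activated by removal of a propeptide. ADAMTS proteases are secreted enzymes with thrombospondin repeats that trim procollagens, cleave proteoglycans such as versican and aggrecan, or act on von Willebrand factor. ADAMTS-like proteins share the thrombospondin repeats but lack the catalytic domain. TIMPs bind the active site of metalloproteinases, and in the lung the balance between enzymes and inhibitors bears on alveolar structure, emphysema and fibrosis.

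Libraries held 4987829 to 7381008 fragments. Levels within a gene are given as CPM, fragments scaled to a common library size with TMM factors, and levels between genes as the authors' length-scaled FPKM. The lung parenchyma markers summed to 33600 to 49900 CPM, of which Scgb1a1 alone held 22200 to 39200 CPM. Every other marker of this list was lowest in single-exposure library 1. There Ager stood at 98.6 CPM, against 604 to 1350 elsewhere, and Sftpc at 1450 CPM, against 3980 to 7000. Several libraries stood apart. Sham library 1 lay between the other sham libraries for 71% of genes, against 13.1 to 42.7% for the other 8 libraries within their groups, and for 32 of the 38 members tested, so the 3 sham libraries were not shown to vary independently. It also held 2450 CPM of skeletal muscle markers, against 0.818 to 113 in the others. Single-exposure library 1 held heart muscle markers at a summed 12300 CPM, against 79.7 to 679 elsewhere, cartilage markers at 113 CPM, smooth muscle markers at 3930 CPM, against 393 to 839 elsewhere, and 796 CPM of endothelial markers, against 2840 to 5260 elsewhere. Weekly-exposure library 3 had 0 fragments of 4 Y-linked genes, against 1443 to 2070 in the others, and 1090 CPM of adipocyte markers, against 15.5 and 24.1 in the other weekly libraries and 1030 in single-exposure library 1. The part of the low parenchyma markers, of the muscle, cartilage and fat material, and of any sex difference, in the results was not tested.

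Counting all 44 members on the FPKM scale, the inhibitors led. Timp3, the TIMP that is bound to the extracellular matrix and also inhibits ADAM and ADAMTS enzymes, averaged 237 FPKM over the 9 libraries, and Timp2, which together with Mmp14 brings pro-Mmp2 to the cell surface, averaged 126 FPKM. The next levels were those of Adamts10 at 47.3 FPKM, Adamts1 at 37.9, Mmp2 at 33.7, Mmp14 at 26, Mmp15 at 25.8 and Adamts9 at 21.7 FPKM. Adamtsl2 led the ADAMTS-like genes with 18 FPKM. At the low end stood Adamts4 at 0.463, Adamts13 at 0.0881 and Mmp24 at 0.0375 FPKM. Timp1 and Timp4 were far below the other inhibitors, at 5.62 and 2.18 FPKM. The 4 Timp genes together made up 29 to 57.7% of the FPKM summed over all members in a library, the Mmp genes 15.8 to 39.2%, the Adamts genes 16.5 to 29.3% and the Adamtsl genes 5.36 to 8.34%.

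**Figure D1:**
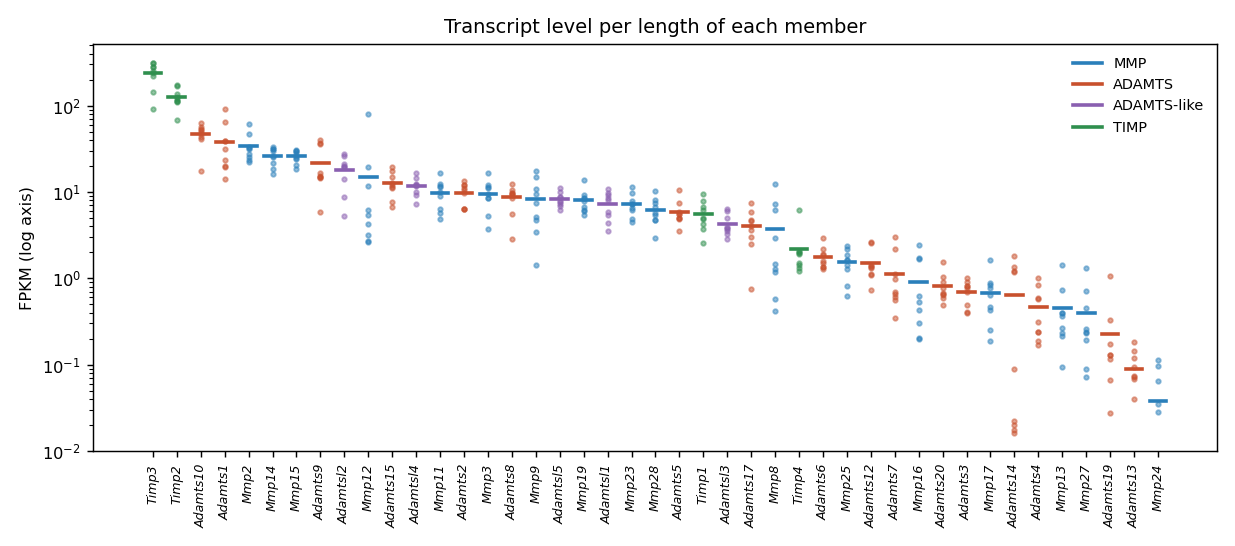
FPKM of each member in each library on a log axis, in order of mean FPKM, with 1 point per library and a line at the mean. Colours mark the families. Libraries at 0 are not drawn and Adamts18 is left out. Timp3 and Timp2 stand highest, at means of 237 and 126 FPKM.

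The families were then compared by the change of each member, fitted with edgeR's quasi-likelihood test on all 14074 genes that passed the filter on low counts. Of the 44 members 38 were tested, namely 14 Mmp, 15 Adamts, 5 Adamtsl and 4 Timp genes. At a Benjamini-Hochberg adjusted p under 0.05 edgeR called 0 genes in each comparison, and therefore 0 members. At an unadjusted p under 0.05 it found 1693 genes after a single exposure, or 12%, 1112 after 3 weekly exposures, or 7.9%, and 920 between the irradiated groups, or 6.54%. DESeq2, run as an alternative, called 198, 89 and 5 genes at an adjusted p under 0.05. Its calls included Adamts9, Adamts2, Adamts1, Mmp14 and Adamts14 after a single exposure and Adamts2, Adamts1, Mmp2 and Adamts9 after 3 weekly exposures. Limma on log2(FPKM + 1) called 3, 0 and 1 genes.

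After 3 weekly exposures, 25 of the 38 members were higher than sham by the fit, against 52.4% of all genes, and 13 lower, with a median log2 change of 0.28, against a median of 0.02 over all genes tested. An unadjusted p under 0.05 was reached by 8 members on the higher side, against 4.26% of all genes, and by 3 on the lower side, against 3.64%. These 11 members became 9 without sham library 1, where 3.44% of all genes passed, 15 without single-exposure library 1, where 12.2% passed, and 8 without weekly library 1, where 7.73% passed. The Mmp genes were mostly higher, 11 of 14 with a median of 0.51. In 6 of these 14 the 3 weekly libraries lay above every sham library, against 10.8% of all genes, and in 2 below, against 11.1%. Of the Adamts genes 11 of 15 were higher, with a median of 0.31. Adamtsl genes stood at a median of -0.05 with 4 of 5 lower, and Timp genes at 0.06 with 2 higher and 2 lower. Leaving out 1 library turned both signs, to 0.13 for Adamtsl without sham library 3 and to -0.09 for Timp without weekly library 3. No Adamtsl or Timp gene reached an unadjusted p under 0.05 in this comparison.

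After a single exposure the members were divided, with 21 higher, against 53.8% of all genes, 17 lower and a median log2 change of 0.13, against 0.03 over all genes. An unadjusted p under 0.05 was reached by 4 members on the higher side, against 6.6% of all genes, and 3 on the lower side, against 5.43%. These 7 members became 6 without sham library 1, where 5.34% of all genes passed, and numbered 7 without single-exposure library 1, where 13.5% passed. Over all single libraries left out they numbered 5 to 10, the fewest without sham library 3, where 6.49% passed, and the most without single-exposure library 3, where 16.3% passed. The groups did not overlap in 4 members on the higher side, against 10.2% of all genes, and in 3 on the lower side, against 10.7%. The median was 0.24 for Mmp, 0.08 for Adamts, -0.27 for Adamtsl and 0.17 for Timp genes. With single libraries left out the Mmp median reached 0.1, the Adamts median turned to -0.04 without single-exposure library 1 and the Timp median to -0.05 and -0.04 without single-exposure library 1 and library 3. The sign of the median over all members was not stable either, since it was -0.03 without single-exposure library 1 and -0.01 without single-exposure library 3. Between the irradiated groups, 24 members were higher after 3 weekly exposures than after a single one and 14 lower, with a median of 0.14, and 4 members reached an unadjusted p under 0.05 on the higher side, against 2.79% of all genes, and 0 on the lower side, against 3.74%. Higher by the fit were 48.3% of all genes. The groups did not overlap in 4 members on the higher side, against 4.1% of all genes, and in 0 on the lower side, against 3.86%. The comparisons with sham share the 3 sham libraries.

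**Figure D2:**
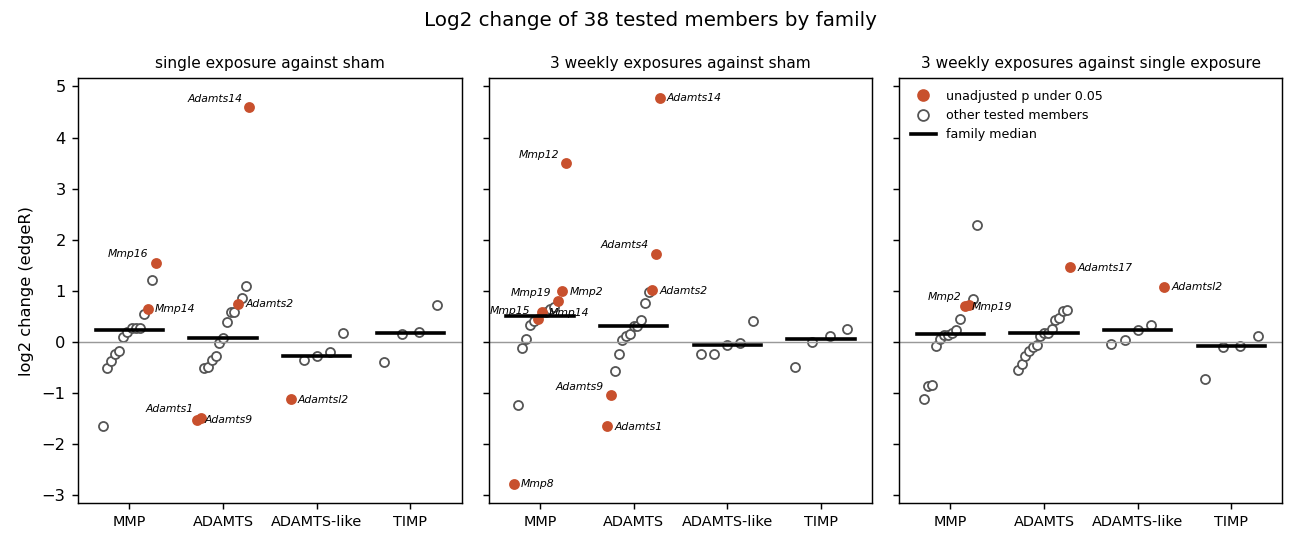
Log2 change of each tested member by family in the 3 comparisons, 1 point per gene, with the family median as a line. The Mmp median is 0.51 after 3 weekly exposures against sham and 0.24 after a single exposure, while the Timp and Adamtsl medians lie between -0.27 and 0.23.

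Library by library, the median Mmp log2 level relative to the sham mean was 0, -0.09 and 0.13 in the sham libraries, 0.11, 0.07 and 0.21 in the single-exposure libraries and 0.47, 0.36 and 0.55 in the weekly libraries. The weekly libraries were thus the highest in this family and did not overlap the other groups. Adamts medians were 0.58, 0.03 and -0.01 in the weekly libraries, and without weekly library 1 the family's median change was 0.06 in place of 0.31. Timp medians ranged from -0.42 to 0.3 over all libraries with no order of the groups. On the FPKM scale the summed Mmp genes without Mmp12 held 117 to 124 FPKM in sham, 134 to 160 after a single exposure and 150 to 181 after 3 weekly exposures. The summed Adamts genes ran the other way, with 174 to 222 FPKM in sham, 87.8 to 149 after a single exposure and 140 to 158 after 3 weekly exposures. Without Adamts1 and Adamts9 the Adamts sum was 90.3 to 100 FPKM in sham, 62.3 to 95.6 after a single exposure and 103 to 111 after 3 weekly exposures.

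**Figure D3:**
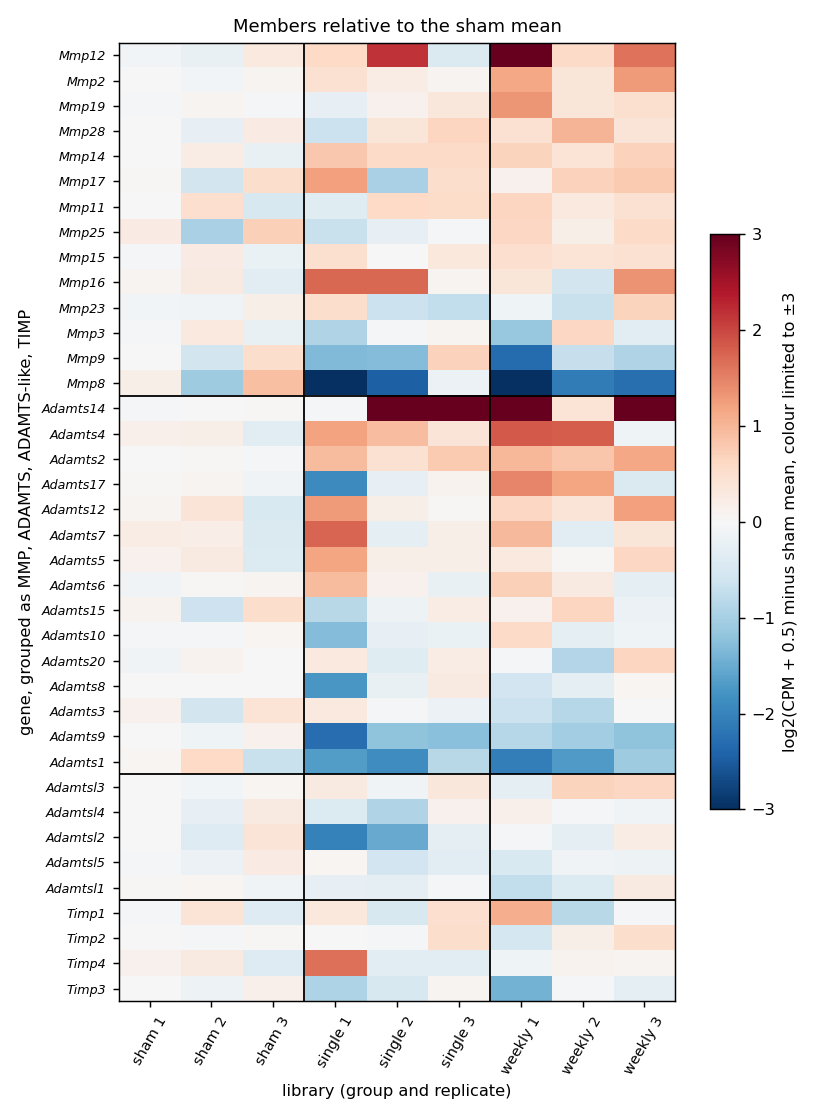
Log2(CPM + 0.5) of each tested member minus its sham mean, with 1 row per gene grouped by family and 1 column per library; red is higher and blue lower than sham, and colours end at 3 in each direction. Adamts1 and Adamts9 are blue, and Adamts2 and Mmp14 red, in all 6 irradiated libraries.

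The bases upstream of the transcription start of 6 members are shown. In Adamts1, Adamts9, Adamts2 and Mmp14 none of the 6 irradiated libraries overlapped sham, and Adamts14 and Mmp12 had the largest fitted changes after 3 weekly exposures, although those rest on some of the libraries only. They are the 250 bases before the start, from RefSeq on build GRCm38.p6, written 5′ to 3′ on the strand of the gene. Of the 44 members 30 had an entry, with 32 promoters, since Mmp12 and Mmp23 had more than 1 start. For Mmp12 the start shown is the one whose window holds an AP-1 motif. Capitals mark matches, on either strand, to the AP-1 motif TGANTCA, the cAMP response element TGACGTCA, the TATA box TATAAA and the GC box GGGCGG. The windows are chr16:85803114-85803363 on the minus strand for Adamts1, chr6:92943535-92943784 on the minus strand for Adamts9, chr11:50601835-50602084 on the plus strand for Adamts2, chr10:61273420-61273669 on the minus strand for Adamts14, chr14:54431348-54431597 on the plus strand for Mmp14 and chr9:7347124-7347373 on the plus strand for Mmp12.
Adamts1: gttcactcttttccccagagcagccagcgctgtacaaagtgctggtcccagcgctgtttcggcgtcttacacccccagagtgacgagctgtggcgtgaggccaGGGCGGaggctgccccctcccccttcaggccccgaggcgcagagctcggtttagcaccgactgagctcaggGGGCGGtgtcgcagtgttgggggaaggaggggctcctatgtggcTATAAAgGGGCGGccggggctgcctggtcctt
Adamts9: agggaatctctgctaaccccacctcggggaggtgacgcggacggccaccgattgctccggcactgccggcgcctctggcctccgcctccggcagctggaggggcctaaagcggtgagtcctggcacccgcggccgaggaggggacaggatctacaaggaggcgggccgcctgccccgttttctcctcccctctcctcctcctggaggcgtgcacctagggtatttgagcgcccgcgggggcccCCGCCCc
Adamts2: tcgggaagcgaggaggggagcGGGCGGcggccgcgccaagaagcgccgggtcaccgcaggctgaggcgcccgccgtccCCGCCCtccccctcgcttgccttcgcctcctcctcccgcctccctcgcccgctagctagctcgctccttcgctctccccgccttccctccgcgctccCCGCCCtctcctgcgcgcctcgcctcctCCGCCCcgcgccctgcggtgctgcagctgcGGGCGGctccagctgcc
Adamts14: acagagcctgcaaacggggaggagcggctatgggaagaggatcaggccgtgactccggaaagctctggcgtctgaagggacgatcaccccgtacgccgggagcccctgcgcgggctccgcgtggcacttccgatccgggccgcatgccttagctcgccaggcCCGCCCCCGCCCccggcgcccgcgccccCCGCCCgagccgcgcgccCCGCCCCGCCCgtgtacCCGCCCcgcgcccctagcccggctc
Mmp14: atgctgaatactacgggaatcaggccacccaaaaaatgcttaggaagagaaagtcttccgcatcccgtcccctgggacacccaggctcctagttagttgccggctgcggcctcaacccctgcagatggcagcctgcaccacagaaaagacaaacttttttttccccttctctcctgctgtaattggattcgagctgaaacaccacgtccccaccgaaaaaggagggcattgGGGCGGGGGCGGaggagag
Mmp12: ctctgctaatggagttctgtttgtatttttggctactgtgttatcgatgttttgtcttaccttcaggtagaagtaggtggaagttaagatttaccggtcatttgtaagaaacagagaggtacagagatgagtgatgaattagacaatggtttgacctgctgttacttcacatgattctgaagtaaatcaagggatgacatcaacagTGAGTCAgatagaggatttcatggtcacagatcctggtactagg

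The Adamts1 window held a TATA box beginning 32 bases before the start and 3 GC boxes. Adamts9 had 1 GC box, Adamts2 had 5, Adamts14 had 6, of which some overlap, and Mmp14 had 2, and none of these windows held a TATA box. The Mmp12 window held an AP-1 motif beginning 44 bases before the start. Among the 32 member promoters the AP-1 motif was found in 3, those of Mmp3, Mmp12 and Mmp13, or 9.38%, against 6.75% of all 32851 promoters. The TATA box was found in 4, or 12.5%, against 12.4%, and the cAMP response element in 0, against 1.55%. The GC box was found in 20, or 62.5%, against 32.7%. Member windows held 37.6% (Mmp3) to 80% (Adamtsl3) G and C bases, and most exceeded the median of 52.4% over all promoters. The motif counts were not matched for base composition. All motif hits are matches of letters and not binding sites.

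Adamts1 and Adamts9, which cleave the proteoglycans versican and aggrecan, were lower in every irradiated library than in every sham library. Adamts1 lies at chr16:85793827-85803113 on the minus strand. Its level was 344, 497 and 207 CPM in the sham libraries, 103, 89.9 and 183 CPM after a single exposure and 78, 101 and 156 CPM after 3 weekly exposures. The sham libraries themselves differed by more than the irradiated ones did. The log2 change was -1.48 ± 0.39 (SE, n = 3 against 3 libraries) after a single exposure (edgeR adjusted p = 0.263) and -1.65 ± 0.39 after 3 weekly exposures (edgeR adjusted p = 0.387). Adamts9, which has a C-terminal domain shared only with Adamts20, lies at chr6:92772699-92943492 on the minus strand. It stood at 249, 232 and 277 CPM in sham, 51.3, 108 and 106 CPM after a single exposure and 138, 122 and 108 CPM after 3 weekly exposures. Here the sham libraries were close to each other, and single-exposure library 1, the library with heart muscle markers, was the lowest. The change was -1.52 ± 0.26 after a single exposure (edgeR adjusted p = 0.141) and -1.04 ± 0.26 after 3 weekly exposures (edgeR adjusted p = 0.406), and without single-exposure library 1 the former was -1.24. Between the irradiated groups Adamts9 was higher after 3 weekly exposures by 0.47 ± 0.26, with no overlap (edgeR adjusted p = 0.779), although the nearest libraries were both at 108 CPM, and by 0.2 without single-exposure library 1. In bulk tissue fewer cells of a type and less RNA per cell cannot be told apart. The summed endothelial markers, 3170, 3170 and 3310 CPM in sham, were 796, 4100 and 4230 CPM after a single exposure and 2840, 5260 and 3350 CPM after 3 weekly exposures, with the lowest values in the libraries numbered 1 of both irradiated groups. Calcrl alone held 1530 and 1440 CPM of the 4100 and 4230. Of the 10 endothelial markers 7 were lower after a single exposure, with a median of -0.23, and 3 after 3 weekly exposures, with a median of 0.1, and none was at 0 in all libraries. Their part in the result was not tested.

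The procollagen N-proteinases Adamts2, Adamts3 and Adamts14 remove the amino-terminal propeptide of fibrillar procollagens. Adamts2, at chr11:50602084-50807573, stood at 52.4, 53.7 and 50.6 CPM in the sham libraries, at 102, 72 and 90 CPM in the single-exposure ones and at 105, 93.3 and 117 CPM in the weekly ones. All 6 irradiated libraries lay above the sham libraries, which were close to each other. The single-exposure change was 0.75 ± 0.15 (edgeR adjusted p = 0.211) and the weekly change 1.01 ± 0.15 (adjusted p = 0.273). The weekly group was 0.25 ± 0.15 above the single-exposure group (adjusted p = 0.792). Adamts14, at chr10:61197112-61273438, had 1 fragment in each sham library after rounding, and 1, 53 and 34 in the single-exposure libraries and 51, 3 and 45 in the weekly libraries. Of the irradiated libraries 4 were high, and single-exposure library 1 and weekly library 2 were near sham. The summed fragments, 3 in sham, gave a ratio to sham of 26.1 (95% exact interval 8.66 to 129) after a single exposure. After 3 weekly exposures the ratio was 28.6 (9.51 to 141). These intervals cover counting error only and treat the rounded sham values, 0.705, 0.705 and 0.718 before rounding, as whole counts. The edgeR change, which includes the spread between libraries, was 4.6 ± 1.53 after a single exposure (edgeR adjusted p = 0.332), where the groups overlapped. After 3 weekly exposures it was 4.78 ± 1.53 (edgeR adjusted p = 0.498). The deposited values of Adamts14 did not come out whole in every library, so its counts may be estimates shared with another feature. Adamts3, which also processes the lymphatic growth factor VEGF-C, stood at 7.85, 4.71 and 9.64 CPM in sham, 8.8, 6.89 and 6.22 CPM after a single exposure and 4.36, 3.68 and 7.05 CPM after 3 weekly exposures, with overlapping groups and a weekly change of -0.56 ± 0.37 (edgeR adjusted p = 0.765).

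Of the aggrecanases, Adamts4 was low everywhere. It had 8, 7 and 4 fragments in the sham libraries, 21, 15 and 10 fragments after a single exposure and 30, 38 and 6 fragments after 3 weekly exposures, so weekly library 3 was at the level of sham, while the single-exposure libraries lay above it in CPM. The weekly change was 1.73 ± 0.64 (edgeR adjusted p = 0.562). Adamts5 stood at 51.6, 57.5 and 35.8 CPM in sham, 109, 53.4 and 53.9 CPM after a single exposure and 57.8, 48.5 and 73.2 CPM after 3 weekly exposures. Its highest value was that of single-exposure library 1, and the groups overlapped. Among the other proteoglycan-cleaving relatives, Adamts8 was 42.6 to 43.6 CPM in sham, 12.6 to 51.9 after a single exposure and 28.6 to 44.9 after 3 weekly exposures, and Adamts15 ranged from 50.1 to 139 CPM over the libraries with overlapping groups.

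Adamts10, Adamts6 and Adamts17 belong to the ADAMTS proteases associated with fibrillin microfibrils. Adamts10, the most abundant ADAMTS gene by FPKM, stood at 202, 203 and 215 CPM in sham, 83.7, 175 and 181 CPM after a single exposure and 309, 169 and 190 CPM after 3 weekly exposures. The single-exposure libraries were below all sham libraries, while the weekly libraries lay on both sides of them. The single-exposure change was -0.5 ± 0.31 (edgeR adjusted p = 0.537), and -0.22 without single-exposure library 1. Adamts17 differed between the irradiated groups by 1.46 ± 0.56 (edgeR adjusted p = 0.753), with 3.19, 11.2 and 14.4 CPM after a single exposure and 38, 31.1 and 9.83 CPM after 3 weekly exposures, which overlap. Adamts6, Adamts7, Adamts12 and Adamts20 had group means of 3.14 to 14.2 CPM and overlapping groups against sham in both comparisons.

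The membrane-type enzyme Mmp14 cleaves collagen at the cell surface and activates Mmp2. Mmp14, at chr14:54431612-54445364, stood at 58.1, 68.2 and 50 CPM in sham, 102, 86.9 and 87.5 CPM after a single exposure and 92.3, 77.4 and 94.1 CPM after 3 weekly exposures. All 6 irradiated libraries exceeded the highest sham library. The log2 change was 0.65 ± 0.15 after a single exposure (edgeR adjusted p = 0.231) and 0.58 ± 0.15 after 3 weekly exposures (edgeR adjusted p = 0.406). Mmp15, a related transmembrane enzyme, stood at 110, 136 and 99.6 CPM in sham, 160, 115 and 143 CPM after a single exposure and 161, 152 and 158 CPM after 3 weekly exposures. Its weekly libraries lay above all sham libraries, with a change of 0.45 ± 0.16 (edgeR adjusted p = 0.549). Mmp2, gelatinase A, stood at 87.9, 83.5 and 93.3 CPM in sham, 122, 103 and 94 CPM after a single exposure and 198, 113 and 215 CPM after 3 weekly exposures. The weekly libraries were above sham by 0.99 ± 0.23 (edgeR adjusted p = 0.381) and the single-exposure libraries by 0.27 ± 0.22 (adjusted p = 0.647), without overlap in either case. For the single exposure the nearest libraries, at 94 and 93.3 CPM, were almost equal. Weekly exposure exceeded single exposure by 0.72 ± 0.22 (edgeR adjusted p = 0.753), although weekly library 2 lay within the single-exposure range. Other membrane-type genes were low. Mmp16 had 0.954 to 6.54 CPM, with a single-exposure change of 1.55 ± 0.69 (edgeR adjusted p = 0.414) and overlapping groups, and Mmp17 ranged from 0.861 to 5.76 CPM. Mmp25, a membrane-anchored enzyme of leukocytes, was 2.64 to 9.64 CPM in sham, 3.34 to 5.43 after a single exposure and 6.4 to 8.9 after 3 weekly exposures, so the irradiated groups did not overlap each other. Fibroblast markers, which mark the cells that make much of the lung's Mmp2, summed to 3760 to 3890 CPM in sham, 3430 to 5220 after a single exposure and 4460 to 5790 after 3 weekly exposures, with none of the 11 at 0. By the fit 7 of the 11 were higher and 4 lower in each comparison with sham, with medians of 0.27 and 0.13. After 3 weekly exposures 5 lay above every sham library, against 10.8% of all genes, and 0 below, against 11.1%. The 5 were Col1a1, Col1a2, Col3a1, Pdgfrb and Fn1, and the collagens among them are also in the list of collagen substrates. The 4 lower ones were Pdgfra, Dcn, Inmt and Npnt, which overlapped sham. The part of the fibroblast markers in the result was not tested.

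**Figure D4:**
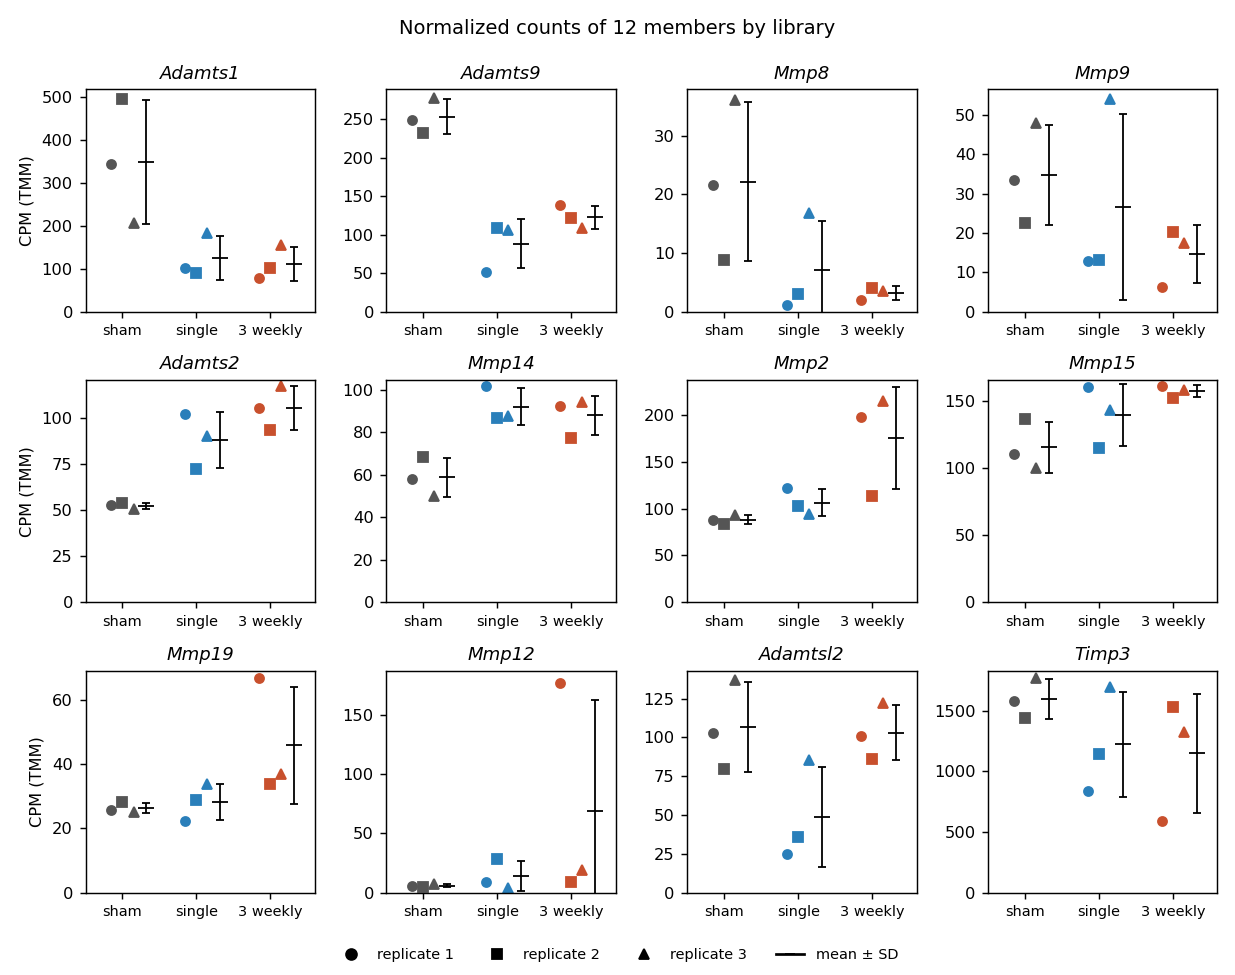
CPM of 12 members in each library, with 1 panel per gene, points for the libraries of each group and bars for the group mean and SD (n = 3); axes start at 0. The 3 sham libraries lie above all 6 irradiated ones for Adamts1 and Adamts9 and below them for Adamts2 and Mmp14, and 1 weekly library sets the mean of Mmp12.

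Mmp8, the neutrophil collagenase, and Mmp9, gelatinase B, are both stored in neutrophil granules. Mmp8 stood at 21.6, 8.86 and 36 CPM in sham, 1.21, 3.1 and 16.8 CPM after a single exposure and 1.92, 4.09 and 3.6 CPM after 3 weekly exposures. The weekly libraries were all below sham, with a change of -2.77 ± 0.88 (edgeR adjusted p = 0.498), and after a single exposure the groups overlapped. Mmp9 stood at 33.5, 22.6 and 48 CPM in sham, 13, 13.1 and 53.9 CPM after a single exposure and 6.28, 20.3 and 17.5 CPM after 3 weekly exposures. Its weekly libraries were again below sham, by -1.23 ± 0.62 (edgeR adjusted p = 0.678), and single-exposure library 3 had the highest value of all. The neutrophil marker S100a8 had the same order as Mmp8 among the sham and among the single-exposure libraries, at 88.4, 51.3 and 139 CPM in sham, 1.37, 7.57 and 97.5 CPM after a single exposure and 9.95, 25.8 and 7.37 CPM after 3 weekly exposures. Of the 11 neutrophil markers 8 were tested and 6 were lower after 3 weekly exposures, with a median of -1.74, and their summed level was 379 to 880 CPM in sham, 357 to 1730 after a single exposure and 229 to 689 after 3 weekly exposures. The sum of 1730 CPM in single-exposure library 1 was mostly 1640 CPM of Ltf, while S100a9 there was at 1.37 CPM and Ngp at 0, and the 689 CPM in weekly library 1 was mostly 435 CPM of Lcn2 and 172 CPM of Ltf. Their part in the lower Mmp8 and Mmp9 was not tested.

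Mmp12, the macrophage elastase, differed widely between libraries. It stood at 5.6, 5.09 and 7.48 CPM in sham, 9.25, 28.6 and 4.31 CPM after a single exposure and 177, 9.13 and 19.5 CPM after 3 weekly exposures. All weekly libraries were above sham, and weekly library 1 was far above every other library. The change of 3.5 ± 1.11 (edgeR adjusted p = 0.498) became 1.24 without that library. Mmp19, a secreted enzyme found in many tissues, stood at 25.8, 28.1 and 25.2 CPM in sham, 22.3, 28.7 and 33.7 CPM after a single exposure and 66.8, 33.8 and 37 CPM after 3 weekly exposures. Its weekly libraries were above those of both other groups, although weekly library 2 and single-exposure library 3 were almost equal, at 33.8 and 33.7 CPM. The change was 0.8 ± 0.27 against sham (edgeR adjusted p = 0.521) and 0.7 ± 0.27 against a single exposure (edgeR adjusted p = 0.753). Without weekly library 1 these changes were 0.43 and 0.33. The alveolar macrophage markers, with 8 tested and all 8 higher after 3 weekly exposures by a median of 0.82, summed to 217 to 229 CPM in sham, 181 to 445 after a single exposure and 297 to 391 after 3 weekly exposures. The macrophage ribonuclease Ear2 was 21.9, 29.6 and 18.7 CPM in sham, 10.5, 78.2 and 34.8 CPM after a single exposure and 80.4, 46.3 and 46.9 CPM after 3 weekly exposures. Of these markers only Ear2 was highest in weekly library 1, and the sum was highest in single-exposure library 2. The part of the markers in the result was not tested.

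**Figure D5:**
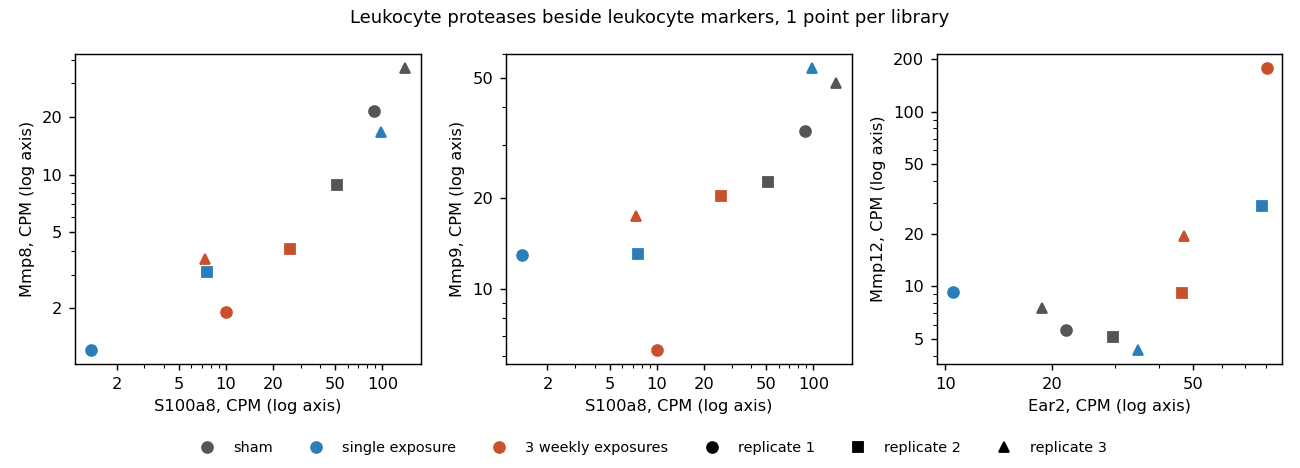
Mmp8 and Mmp9 against the neutrophil marker S100a8, and Mmp12 against the macrophage marker Ear2, as CPM on log axes with 1 point per library coloured by group. Libraries with low S100a8 also have low Mmp8. Weekly library 1 is highest for Mmp12 and, at 80.4 CPM against 78.2 in single-exposure library 2, for Ear2. The other listed macrophage markers are highest in other libraries.

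Of the remaining Mmp genes, Mmp3, stromelysin 1, stood at 19.9, 25.3 and 17.5 CPM in sham, 10.9, 20.1 and 22 CPM after a single exposure and 9.07, 32.3 and 16.5 CPM after 3 weekly exposures, with no separation of the groups. Mmp28, epilysin, was 15.8 to 22.2 CPM in sham and 24.6 to 38.7 CPM after 3 weekly exposures, which did not overlap, with a change of 0.65 ± 0.33 (edgeR adjusted p = 0.693). Mmp11, stromelysin 3, and Mmp23, a membrane-anchored enzyme, ranged from 5.27 to 26.9 CPM with overlapping groups.

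Of the 5 ADAMTS-like genes 4 were lower after a single exposure by the fit. Adamtsl2, which binds fibrillin and modulates TGF-β signalling, stood at 103, 79.7 and 137 CPM in sham, 25, 36.2 and 85.5 CPM after a single exposure and 101, 86.3 and 122 CPM after 3 weekly exposures. The single-exposure group overlapped sham at its highest library, with a change of -1.12 ± 0.41 (edgeR adjusted p = 0.354), and lay below every weekly library, by 1.08 ± 0.41 (edgeR adjusted p = 0.753). Without single-exposure library 3 these were -1.8 and 1.75, and without single-exposure library 1 they were -0.81 and 0.76. Adamtsl4, another fibrillin-binding protein, stood at 58, 49 and 70.6 CPM in sham, 44.1, 31 and 64.5 CPM after a single exposure and 64.9, 56.1 and 54.7 CPM after 3 weekly exposures, with overlap throughout. Adamtsl5 stood at 33, 30.5 and 41.1 CPM in sham, 36, 23.1 and 27.6 CPM after a single exposure and 25.1, 32.3 and 31 CPM after 3 weekly exposures, also with overlap. Adamtsl1 and Adamtsl3 ranged from 19.9 to 44.6 CPM and did not separate the groups.

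The groups overlapped for every Timp gene, which does not show that their levels were equal. Timp3 stood at 1580, 1440 and 1770 CPM in sham, 837, 1140 and 1690 CPM after a single exposure and 594, 1530 and 1320 CPM after 3 weekly exposures. The lowest libraries were weekly library 1 and single-exposure library 1, which also had the highest shares of mitochondrial fragments, 5.82% and 7.16%, against 1.73 to 3.1% elsewhere. The changes were -0.39 ± 0.37 and -0.48 ± 0.37, and the latter was -0.16 without weekly library 1. Timp2 stood at 520, 505 and 536 CPM in sham, 521, 509 and 744 CPM after a single exposure and 361, 584 and 744 CPM after 3 weekly exposures, changes of 0.19 ± 0.27 and 0.11 ± 0.27, which were -0.01 without single-exposure library 3 and -0.14 without weekly library 3. Timp1, the inducible inhibitor encoded on the X chromosome, stood at 4.16, 5.84 and 3.15 CPM in sham, 5.46, 2.93 and 6.22 CPM after a single exposure and 9.6, 2.18 and 4.1 CPM after 3 weekly exposures, changes of 0.15 ± 0.55 and 0.26 ± 0.55, which turned to -0.06 without single-exposure library 3 and to -0.49 without weekly library 1. Timp4 stood at 3.04, 3.39 and 1.97 CPM in sham, 9.71, 2.07 and 2.07 CPM after a single exposure and 2.44, 3 and 2.95 CPM after 3 weekly exposures, with the high value in single-exposure library 1. The Timp1, Timp3 and Timp4 genes overlap the synapsin genes Syn1, Syn3 and Syn2 on the other strand. The kit marked strand, and the sources used here do not say whether the counting did.

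The 6 members that were not tested were Mmp13, Mmp24, Mmp27, Adamts13, Adamts18 and Adamts19. Mmp13, collagenase 3, had 2 to 12 fragments in 8 libraries and 30 in weekly library 1. Mmp27 had 17 fragments and Adamts19 had 41 in single-exposure library 1, the library with heart and cartilage markers, against 1 to 7 and 0 to 11 elsewhere. Adamts13, which cleaves von Willebrand factor and is made mainly in liver, had 2, 0 and 2 fragments in the sham libraries, 2, 4 and 3 in the single-exposure ones and 4, 2 and 1 in the weekly ones, and Mmp24 had 0 to 4.

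Genes of the same pathway were counted by lists. Of the 13 collagen and elastin genes tested, 11 were higher after a single exposure, with a median of 0.48, and 13 after 3 weekly exposures, with a median of 0.72. In 10 of the 13 the weekly libraries lay above every sham library, against 10.8% of all genes. The log2 change of Col3a1 was 0.9 ± 0.26 and 1.08 ± 0.26 in the comparisons of a single exposure and 3 weekly exposures with sham, and the former was 0.64 without single-exposure library 1. Eln, the elastin cleaved by Mmp12, stood at 37.8, 46.4 and 31.7 CPM in sham, 40.7, 43 and 33.4 CPM after a single exposure and 333, 136 and 59.3 CPM after 3 weekly exposures. Its weekly change of 2.19 ± 0.51 was 1.34 without weekly library 1, the library highest for Mmp12. Of 17 proteoglycan and glycoprotein substrates 16 and 15 were higher, with medians of 0.46 and 0.28. Without single-exposure library 1 the former were 13 with a median of 0.23, and without weekly library 3 the latter were 12 with a median of 0.15. Decorin stood at 885 CPM in single-exposure library 1, against 135 and 166 in its group and 160, 195 and 204 in sham. Vcan, which encodes versican, the substrate of Adamts1 and Adamts9, stood at 39.1, 37.5 and 40.3 CPM in sham, 132, 59.6 and 48.7 CPM after a single exposure and 46.6, 33.1 and 55.2 CPM after 3 weekly exposures. Its single-exposure change was 1.04 ± 0.35 (edgeR adjusted p = 0.332), and 0.47 without single-exposure library 1, and its weekly change was 0.21 ± 0.35. The 15 ADAM and astacin genes had medians of 0.19 and 0.17, with 11 of 15 higher in each, but the former was -0.1 with 6 higher without single-exposure library 1. The 13 activators and cell-surface partners had medians of 0.02 and -0.08, and the 14 other inhibitors and clearance genes -0.01 and 0.13. Leaving out 1 library turned the sign of both activator medians, to -0.13 without single-exposure library 1 and to 0.09 without weekly library 2. Of these 14 genes 7 were higher after a single exposure and 10 after 3 weekly exposures. Thbs1, thrombospondin 1, which was picked from them after its values were seen, was lower. It stood at 832, 1170 and 543 CPM in sham, 239, 239 and 308 CPM after a single exposure and 285, 241 and 353 CPM after 3 weekly exposures. Its log2 changes were -1.7 ± 0.29 after a single exposure and -1.53 ± 0.28 after 3 weekly exposures. No gene of these lists passed an adjusted p of 0.05.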

How the data were processed

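Total RNA depleted of ribosomal RNA was sequenced in 9 lung libraries, 3 per group. Per the submitters' processing notes, cutadapt 1.9.3 and HISAT2 2.0.4 were used on build mm10. The sources used here do not name the program that estimated expression. The authors deposited estimated counts and FPKM for each gene and library, per the file headers. The deposited estimated counts were multiples of 1 step per library, between 0.8538 and 1.192, and after division 92 to 93.4% of values lay within 0.1 of a whole number. They were divided by that step and rounded, which gave the fragments used here. Values of Adamts6, Adamts10, Adamts14 and Adamtsl5 did not come out whole in at least 4 libraries each, and 12 members share a deposited locus with another gene.

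Fragments were filtered with filterByExpr, scaled with TMM and fitted in edgeR 4.0.16 (R 4.3.3) with 1 mean per group over all 9 libraries, which left 6 residual degrees of freedom. The biological coefficient of variation common to all genes was 0.316. The quasi-likelihood test was adjusted over 14074 genes by Benjamini-Hochberg. Each SE was derived as the size of the log2 change divided by the root of its F statistic. Alternatives were DESeq2 1.42.0, limma 3.58.1 on log2(FPKM + 1) and log2(FPKM + 0.1), other filters and scalings, and leaving out libraries. The pipeline was run on simulated counts whose replicates were independent and varied less than these data. That run therefore does not show how the test performs on these libraries. Coordinates are GENCODE M21 on GRCm38, the same build, counted from 1.

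Genes described with every library's value were those at an unadjusted p under 0.05 with no overlap, the 3 most abundant of each family and a fixed set of 17. Other genes named were chosen after their values were seen, as were the pathway lists' values without single libraries. Members, lists and rules were chosen with earlier results of these data known. Adjusted p-values are those of edgeR unless another tool is named.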

Additional observations from a re-analysis of the deposited data

How the results depend on the processing

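Calls over all genes moved with the tool. At an adjusted p under 0.05 DESeq2 called 198 genes after a single exposure, 89 after 3 weekly exposures and 5 between the irradiated groups, against 0 for edgeR in each. Limma called 3, 0 and 1 with log2(FPKM + 1) and 5, 2 and 1 with log2(FPKM + 0.1), and edgeR on only the 6 libraries compared called 2 after 3 weekly exposures. The cause was not tested. With log2(FPKM + 1) the weekly median log2 change was 0.15 over members and 0.42 over Mmp genes. Between the irradiated groups the Mmp median was -0.01 with log2(FPKM + 1) and 0.03 with log2(FPKM + 0.1), against 0.16 with edgeR.

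Leaving out 1 library at a time, or sham library 1 with single-exposure library 1 (chosen after seeing the data), moved the single-exposure median over members between -0.03 and 0.14. It was -0.01 without single-exposure library 3 and -0.02 without sham library 1 and single-exposure library 1 together. The single-exposure Mmp median ranged from 0.1 to 0.24 and the weekly Adamts median from 0.06 to 0.37. Between the irradiated groups, the number of members at an unadjusted p under 0.05 ranged from 1 to 5, the median over members from 0.05 to 0.26, the Mmp median from 0.15 to 0.29 and the Adamts median from -0.06 to 0.28. Adamts1, Adamts2, Adamts9 and Mmp14 kept their direction and an unadjusted p under 0.05 in 18 of 18 alternatives in both comparisons with sham. These genes were named because they passed that p without overlap in the same libraries. The alternatives refit those libraries, so this result was largely fixed in advance and is not independent support. Among the alternatives DESeq2 alone called any member at an adjusted p under 0.05.

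Libraries with the same number did not deviate together, with correlations of -0.0792 to 0.304, and 6 of 18 matches were highest for the own number. With the replicate block 7, 12 and 2 members had an unadjusted p under 0.05 in the 3 comparisons, against 7, 11 and 4 without it, while 11.7, 7.68 and 5.58% of all genes passed, against 12, 7.9 and 6.54%. At these depths genes with under 10 fragments per library, such as Mmp24, carry large counting error.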
